A study of Mus musculus with 9 samples.

Results

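The genes described here are 44 members of TGF-beta, activin and BMP signalling: ligands, latency proteins, secreted antagonists, receptors, SMADs, intracellular antagonists and targets. They were taken by gene symbol from the deposited array table. All 44 were measured, each by 1 feature (transcript cluster), out of 19505 named genes. The tissue was back skin from C57BL/6J mice aged 8 weeks. All samples received 5% imiquimod cream daily for 7 days, a Toll-like receptor agonist that gives a psoriasis-like dermatitis. In 5 samples (stretch, labelled IMQ+F) the skin was also pulled by a glued plastic traction device lengthened by 10 mm, and in 4 samples (no stretch, labelled IMQ+N) it was not. The labels do not say whether the 4 samples without stretch wore the glued device, name no separate mouse for each sample, and include no skin without imiquimod that was analysed here. P-values therefore rest on sample-to-sample spread whose biological and technical shares are unknown, and differences with stretch can include the device.

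TGF-beta and activin ligands bind paired serine/threonine kinase receptors that phosphorylate SMAD2 and SMAD3, while BMP ligands act through other receptors on SMAD1 and SMAD5. Both kinds of receptor SMAD join SMAD4 to enter the nucleus, where the inhibitory genes Smad6 and Smad7 and, for BMP, the Id genes are among the textbook targets. In skin, TGF-beta is known for restraining keratinocyte growth and inducing matrix in fibroblasts, activin for wound repair, and BMPs and their antagonists for hair follicle cycling. The TGF-beta/activin branch had 20 of the members and the BMP branch 19; Smad4, Smad7, Acvr2a, Acvr2b and Fstl1 act in both and were kept apart.

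The upstream sequences are shown for 6 members named in the results: the largest positive differences in each branch (Inhba and Grem1), a pair of TGF-beta ligands with differences of opposite sign (Tgfb1 and Tgfb2), and BMP target genes (Id2 and Id3). Each is the 250 bases before the annotated start, 5′ to 3′ on the gene's strand, from RefSeq in build GRCm38.p6. Capitals mark the SMAD box CAGAC, the GC-rich SMAD element GGCGCC and the AP-1 element TGANTCA, each searched on both strands.
Inhba: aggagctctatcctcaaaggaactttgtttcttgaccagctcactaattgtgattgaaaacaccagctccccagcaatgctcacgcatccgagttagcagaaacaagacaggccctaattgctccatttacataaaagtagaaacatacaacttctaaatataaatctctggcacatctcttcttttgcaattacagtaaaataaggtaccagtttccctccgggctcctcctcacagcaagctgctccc
Grem1: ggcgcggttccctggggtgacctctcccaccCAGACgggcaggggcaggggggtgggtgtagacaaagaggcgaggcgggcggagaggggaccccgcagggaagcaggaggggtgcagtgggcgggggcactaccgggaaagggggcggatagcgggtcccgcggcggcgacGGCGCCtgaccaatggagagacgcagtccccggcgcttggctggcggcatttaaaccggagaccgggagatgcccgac
Tgfb1: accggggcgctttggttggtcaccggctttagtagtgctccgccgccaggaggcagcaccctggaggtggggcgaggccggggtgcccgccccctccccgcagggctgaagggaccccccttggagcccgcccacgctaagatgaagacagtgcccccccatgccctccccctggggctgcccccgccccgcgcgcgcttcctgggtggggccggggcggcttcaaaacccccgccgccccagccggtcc
Tgfb2: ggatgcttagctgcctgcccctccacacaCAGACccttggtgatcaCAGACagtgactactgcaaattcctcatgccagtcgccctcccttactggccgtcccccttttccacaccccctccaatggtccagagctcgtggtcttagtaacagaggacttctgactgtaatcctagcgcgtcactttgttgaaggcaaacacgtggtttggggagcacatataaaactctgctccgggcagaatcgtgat
Id2: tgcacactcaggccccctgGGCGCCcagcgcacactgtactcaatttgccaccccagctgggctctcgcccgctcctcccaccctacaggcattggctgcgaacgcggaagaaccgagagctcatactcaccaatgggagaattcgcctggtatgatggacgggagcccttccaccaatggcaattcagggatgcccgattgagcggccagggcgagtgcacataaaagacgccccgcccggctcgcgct
Id3: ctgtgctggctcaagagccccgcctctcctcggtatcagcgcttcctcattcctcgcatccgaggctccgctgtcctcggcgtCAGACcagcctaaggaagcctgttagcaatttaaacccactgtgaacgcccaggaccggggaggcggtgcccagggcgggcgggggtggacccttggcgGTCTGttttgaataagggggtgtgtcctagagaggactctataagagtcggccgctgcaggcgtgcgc

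These windows lie at chr13:16011601-16011850 (plus strand) for Inhba, chr2:113758649-113758898 (minus strand) for Grem1, chr7:25686752-25687001 (plus strand) for Tgfb1, chr1:186705990-186706239 (minus strand) for Tgfb2, chr12:25096093-25096342 (minus strand) for Id2 and chr4:136143572-136143821 (plus strand) for Id3. Grem1 held 1 SMAD box and 1 GC-rich element, Id2 held 1 GC-rich element, and Tgfb2 and Id3 held 2 SMAD boxes each. The windows of Inhba and Tgfb1 held none of the 3 motifs. Among the 38 windows of the 30 members found in the RefSeq table, 17 held the SMAD box, 9 the GC-rich element and 0 the AP-1 element. Over all 32851 windows of the same length the shares were 42.2%, 9.59% and 6.75%. A match is a description of letters and says nothing of binding.

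The 9 arrays had medians between 5.81 and 5.99 on the log2 scale, and no 2 were identical. The array least like the rest was no-stretch replicate 3 (median r across genes 0.9749); it and stretch replicate 1 had the lowest array weights, 0.58 and 0.55. The markers of skin were present at high level, with Krt14 of basal keratinocytes, Krt1 of suprabasal keratinocytes and Dcn of fibroblasts all above percentile 99.9 of the genes. Skeletal muscle markers were also high, Acta1 at percentile 99.9, so muscle RNA was present as well. The median standard error of a log2 difference over all genes was 0.21, and the number of arrays limits the precision.

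In stretched skin the mean levels of Grem1 (a BMP antagonist), Inhba (an activin subunit), Tgfb1, Id2 and the inhibitory Smad7 lay 1.64-fold to 3.51-fold higher than in imiquimod-treated skin without stretch. Those of Ltbp1 (a TGF-beta carrier), Bmpr2, Smad1 and Tgfb2 lay 1.54-fold to 1.72-fold lower. The means of the BMP ligands among the 44 were lower or, for Bmp2, nearly equal. None of these differences passed the test over all genes. At an adjusted p of 0.05 from limma, 0 of the 44 members were called. Over all 19505 genes 48 were (0.246%; 0.0820% higher and 0.164% lower). At an unadjusted p under 0.05 there were 14 members, 31.8% of the 44, where all genes gave 13.0%. Of these, 7 were higher and 7 lower with stretch (all genes: 6.92% and 6.07%). After median centring of the arrays the split was 7 higher and 3 lower (all genes, either direction: 13.7%). The count was 9 without stretch replicate 1 (all genes: 12.8%) and 8 without no-stretch replicate 1 (all genes: 10.9%). It was 11 without the pair of arrays of lowest weight, no-stretch replicate 3 and stretch replicate 1 (all genes: 10.0%). For 7 members (15.9% of the 44) every stretched array lay on the same side of every other array, 2 higher and 5 lower; of all genes 4.54% did so, 2.38% higher and 2.15% lower. Of the 14, the higher members were Grem1, Inhba, Tgfb1, Id2, Smad7, Bmpr1b and Ltbp2, and the lower ones Ltbp1, Bmpr2, Smad1, Tgfb2, Bmp3, Bmp7 and Bmp6.

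**Figure D1:**
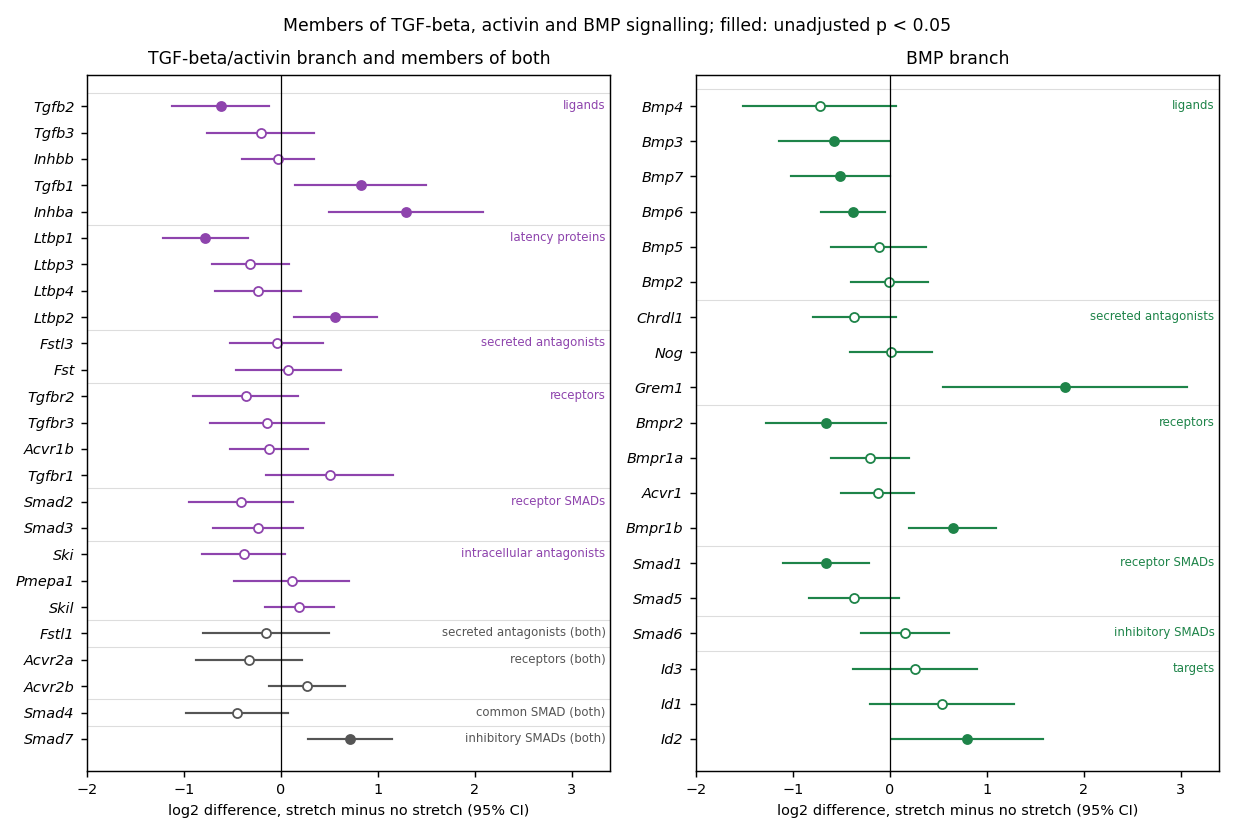
Log2 difference, stretch minus no stretch, of all 44 members with its 95% confidence interval from limma, grouped by branch and role; filled points had an unadjusted p under 0.05 and no member passed after adjustment over all genes. Inhba, Tgfb1, Grem1, Smad7 and Id2 lie to the right of 0 and all 6 BMP ligands at or to the left of it.

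The branches did not separate by their medians. The median log2 difference was -0.13 for the TGF-beta/activin branch, -0.13 for the BMP branch and -0.0034 for all genes. In the TGF-beta/activin branch 7 members were positive and 13 negative, and in the BMP branch 7 and 12. At an unadjusted limma p under 0.05 the TGF-beta/activin branch had 3 higher and 2 lower, 25% of its 20 members. The BMP branch had 3 higher and 5 lower, 42.1% of its 19 members. All genes gave 13.0%, and the difference between these shares was not tested. The branch medians differed by -0.0068, a value that was 0.28 when stretch replicate 3 was left out and 0.17 when no-stretch replicate 4 was. On single arrays the mean over the TGF-beta/activin branch, relative to the no-stretch mean, lay between -0.25 and 0.28 with stretch and between -0.19 and 0.11 without. For the BMP branch these ranges were -0.20 to 0.07 and -0.08 to 0.12. Differences of opposite sign lay inside each branch. In the TGF-beta/activin branch they lay among the ligands (Inhba and Tgfb1 against Tgfb2) and among the latency proteins (Ltbp2 against Ltbp1). In the BMP branch all 6 ligands had negative differences, Bmp2 by only -0.0064, and Grem1 and the 3 target genes had positive ones.

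**Figure D2:**
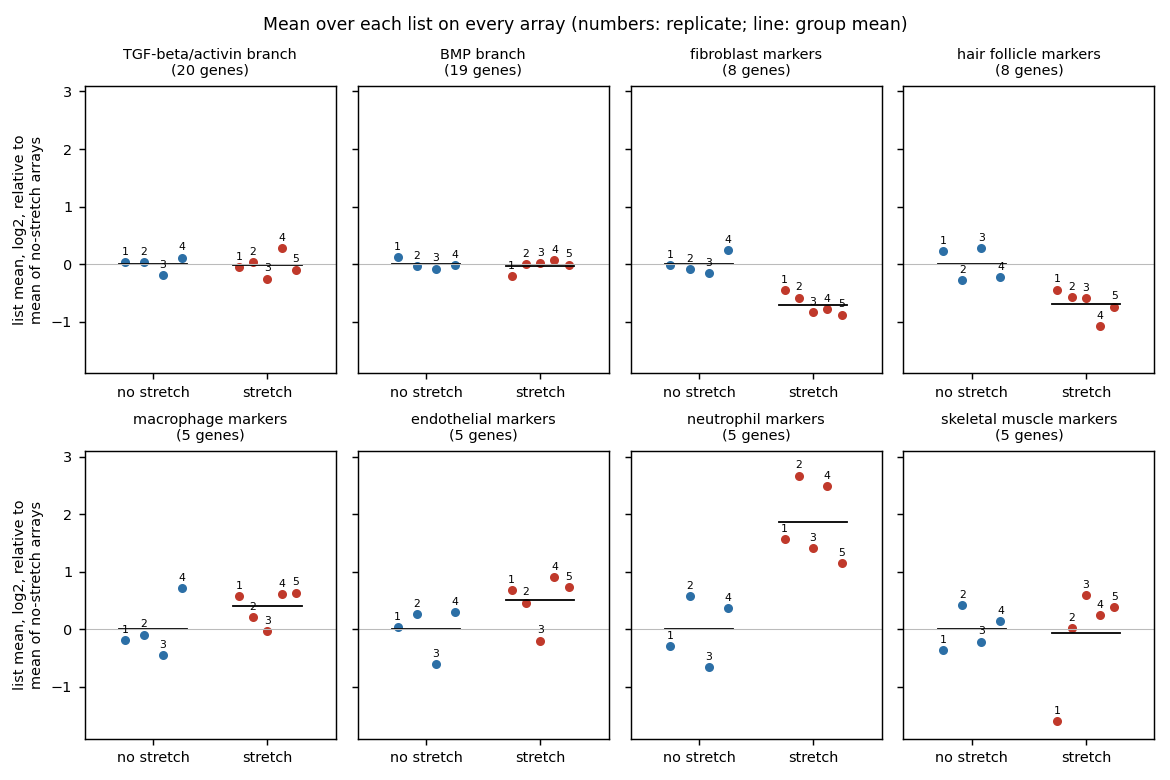
Mean over each list of genes on every array, in log2 units relative to the mean of the no-stretch arrays; points are arrays numbered by replicate and lines are group means. The groups overlap in both signalling branches and in the macrophage and endothelial lists, and lie apart in the fibroblast, hair follicle and neutrophil lists. Stretch replicate 1 lies below the other 8 arrays in the skeletal muscle list.

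Among the ligands of the TGF-beta/activin branch, Inhba had the largest difference. Inhba encodes the subunit that forms activin A. On the log2 scale Inhba was at 7.91, 6.72, 6.44, 7.87 and 6.24 in stretch replicates 1 to 5 and at 5.88, 5.71, 5.28 and 6.12 in no-stretch replicates 1 to 4. All 5 stretched arrays lay above all 4 others, with stretch replicates 1 and 4 far above the remaining 3. Its means were 7.03 ± 0.80 (SD, n = 5) in stretched skin, against 5.75 ± 0.36 (SD, n = 4) in the other group, a log2 difference of 1.29 (95% confidence interval 0.50 to 2.08; 2.44-fold, limma adjusted p = 0.16, exact permutation p = 0.024). Inhbb, the subunit of activin B, had a log2 difference of -0.03 (-0.40 to 0.34), and the sign turned to 0.04 after median centring. Fst, the secreted follistatin that binds activin, had 0.08 (-0.46 to 0.62), and the related Fstl3 -0.05 (-0.53 to 0.43), the latter 0.02 after median centring. Leaving out single arrays moved Fst between -0.12 and 0.21.

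The 3 TGF-beta ligand genes did not share a direction. Tgfb1, the isoform that immune cells and many others make, was at 12.41, 11.70, 11.31, 12.13 and 11.44 in stretch replicates 1 to 5 and at 10.82, 11.36, 10.17 and 11.56 in no-stretch replicates 1 to 4. The groups overlapped: no-stretch replicate 4 lay above stretch replicates 3 and 5. The log2 difference of Tgfb1 was 0.82 (0.14 to 1.498; 1.77-fold, limma adjusted p = 0.29, exact permutation p = 0.063), and 0.40 without no-stretch replicate 3 and stretch replicate 1. Tgfb2 was at 6.94, 7.90, 8.04, 7.50 and 7.70 with stretch and at 8.61, 8.11, 8.10 and 8.14 without. All 5 stretched arrays lay below all 4 others, the nearest being stretch replicate 3 and no-stretch replicate 3. Its log2 difference was -0.62 (-1.12 to -0.12; limma adjusted p = 0.27, exact permutation p = 0.024). Tgfb3 had -0.21 (-0.76 to 0.35), a value that was 0.02 without stretch replicate 3.

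Latent TGF-beta binding proteins hold the inactive ligand in the matrix, and Ltbp1 had the smallest unadjusted p of all members. Ltbp1 was at 6.81, 6.59, 6.15, 6.99 and 6.75 in stretch replicates 1 to 5 and at 7.75, 7.42, 7.13 and 7.45 in no-stretch replicates 1 to 4. Every stretched array lay below every array without stretch, with stretch replicate 3 the lowest. The means of Ltbp1 were 6.66 ± 0.32 (SD, n = 5) in stretched skin, against 7.44 ± 0.25 (SD, n = 4) in the other group, a log2 difference of -0.78 (-1.22 to -0.34; 1.72-fold lower, limma adjusted p = 0.14, exact permutation p = 0.0079). Leaving out single arrays kept it between -0.88 and -0.66. Ltbp3 and Ltbp4 had -0.32 (-0.71 to 0.08) and -0.24 (-0.68 to 0.21). Ltbp2, which is known as a microfibril protein more than as a TGF-beta carrier, had the opposite sign at 0.56 (0.13 to 0.99; exact permutation p = 0.032), from a low level at percentile 15.4 of all genes.

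Fibroblast markers were lower in mean with stretch, as were Ltbp1 and Tgfb2, whereas Ltbp2 was higher. Of 8 measured fibroblast markers 8 were negative and 5 of them had an unadjusted p under 0.05 (all genes: 6.07% lower); their mean lay between -0.88 and -0.45 in the stretched arrays and between -0.15 and 0.25 in the others. The fibroblast mean was -0.45 in stretch replicate 1, lowest of all arrays for Tgfb2. It was -0.83 in stretch replicate 3, lowest of all arrays for Ltbp1. Fewer fibroblasts and less RNA per fibroblast cannot be told apart in bulk skin, and the part of these markers in the values of Ltbp1 and Tgfb2 was not tested. The largest mean difference of the marker lists, 1.86, was that of the neutrophil markers, 5 of 5 positive, whose mean lay between 1.15 and 2.67 with stretch and between -0.66 and 0.58 without. In the other direction, melanocyte markers had 4 of 4 negative, 2 of them past the adjusted threshold (all genes: 0.164% lower). Their mean was -1.64 to -1.001 with stretch and -0.23 to 0.25 without. Macrophages are known to make Tgfb1, and their markers had 5 of 5 positive, with a mean of -0.03 to 0.64 with stretch and -0.45 to 0.72 without. Of these 5, 0 had an unadjusted p under 0.05 (all genes: 6.92% higher). The endothelial markers also had 5 of 5 positive, at -0.19 to 0.90 against -0.60 to 0.30. T cell markers went the other way, with 5 of 5 negative and 1 of them at an unadjusted p under 0.05 (all genes: 6.07% lower). Their mean was -0.75 to -0.11 with stretch and -0.22 to 0.40 without. No-stretch replicate 3 was the lowest array of its group for Tgfb1, Inhba, Grem1 and the neutrophil, macrophage and endothelial lists. It was also the lowest for the fibroblast and basal keratinocyte lists, at -0.15 and -0.45. For the hair follicle, adipocyte and melanocyte lists it was the highest of its group. The part of any of these markers in the values of Tgfb1, Inhba and Grem1 was not tested.

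Receptors of the TGF-beta/activin branch gave no unadjusted p under 0.05. Tgfbr1, the type I receptor of TGF-beta, had a log2 difference of 0.50 (-0.15 to 1.15), with stretch replicates 1 and 4 highest at 11.44 and 10.78 and the other 7 arrays between 9.63 and 10.18. Those are the arrays in which Inhba was also highest. Tgfbr2, the type II receptor, had -0.36 (-0.91 to 0.18), the co-receptor gene Tgfbr3 -0.14 (-0.73 to 0.44) and the activin type I receptor Acvr1b -0.12 (-0.52 to 0.28). The type II receptors Acvr2a and Acvr2b, which serve activins and BMPs, had -0.33 (-0.88 to 0.22) and 0.27 (-0.13 to 0.66).

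All 6 BMP ligands among the members had a lower mean with stretch, Bmp2 by a margin that turned positive after quantile normalization (0.01) and median centring (0.06). The level of Bmp2 was low, at percentile 9.0 of all genes, and that of Bmp4 was at percentile 27.7. Bmp6 was at 6.52, 6.67, 6.65, 6.86 and 6.92 in stretch replicates 1 to 5 and at 7.07, 7.07, 7.01 and 7.28 in no-stretch replicates 1 to 4. The groups of Bmp6 did not overlap, and the gap between stretch replicate 5 and no-stretch replicate 3 was small. Its log2 difference was -0.38 (-0.71 to -0.05; limma adjusted p = 0.31, exact permutation p = 0.016).

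Bmp7, an epithelial BMP, had a log2 difference of -0.51 (-1.02 to -0.0039; exact permutation p = 0.063), and Bmp3, a BMP that opposes the others, -0.58 (-1.15 to -0.01; exact permutation p = 0.063). No-stretch replicate 1 was the highest array for both, and without it they were at -0.33 and -0.34. Bmp4, a mesenchymal BMP, was at 3.04, 4.39, 4.57, 2.91 and 3.58 with stretch and at 4.60, 4.23, 4.94 and 3.92 without. Stretch replicates 1 and 4, highest for Inhba, were the lowest for Bmp4, while stretch replicates 2 and 3 lay within the range of the other group. Its log2 difference was -0.73 (-1.51 to 0.06; exact permutation p = 0.13), and -0.39 without no-stretch replicate 3 and stretch replicate 1. Bmp5 and Bmp2 had -0.12 (-0.61 to 0.37) and -0.01 (-0.41 to 0.39). Hair follicle markers lay lower too, with 8 of 8 negative and a mean of -1.08 to -0.44 with stretch and -0.28 to 0.27 without. Of the 8, 1 passed over all genes (all genes: 0.164% lower) and 2 had an unadjusted p under 0.05 (all genes: 6.07% lower). Lhx2, Krt15 and Sox9 had -2.28, -1.16 and -1.06, the interval of Krt15 including 0. Shh, Lef1, Lgr5, Hoxc13 and Msx2 lay between -0.35 and -0.05, with intervals that include 0. Of the dermal papilla markers 3 of 4 were negative. Their part in the BMP ligand values was not tested.

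**Figure D3:**
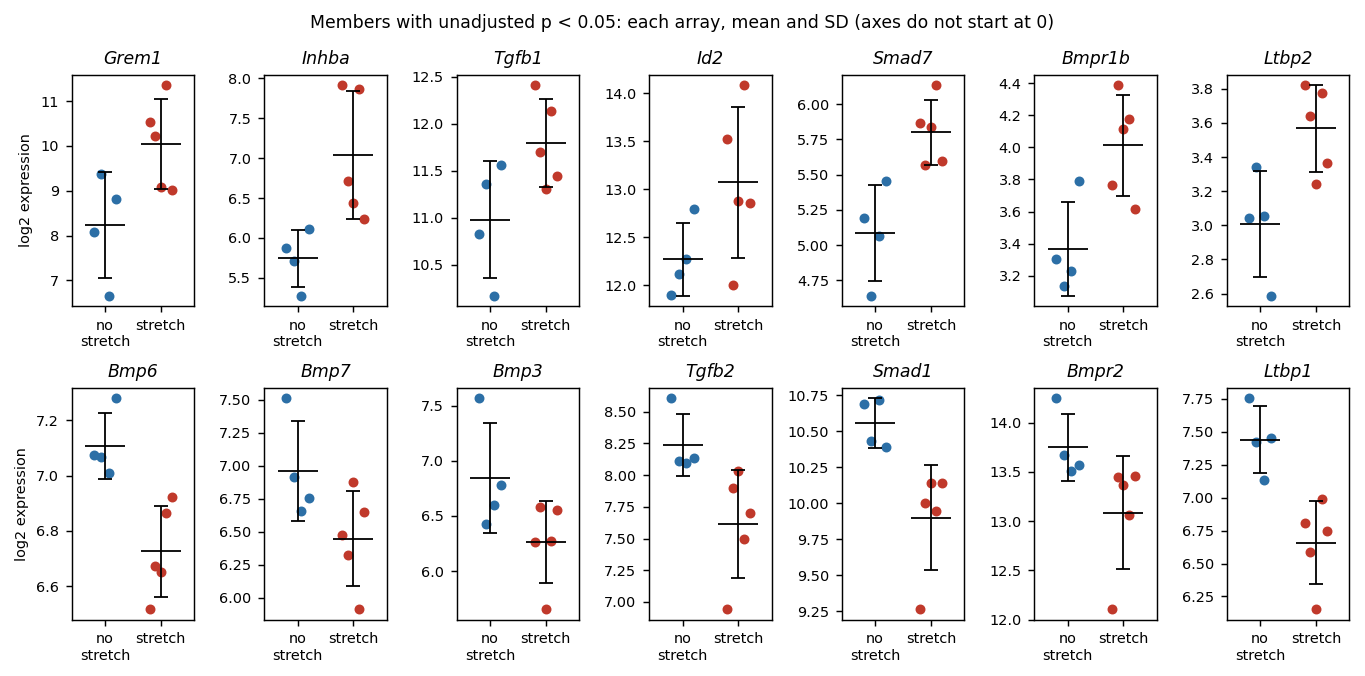
Log2 level of the 14 members with an unadjusted p under 0.05 on each array, with the group mean and SD (n = 5 with stretch, n = 4 without); axes do not start at 0. Groups do not overlap for Inhba, Smad7, Ltbp1, Smad1, Tgfb2, Bmp6 and Bmpr2, and stretch replicate 1 lies far below the rest for Smad1, Tgfb2 and Bmpr2.

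Grem1 had the largest difference of all 44 members. It encodes gremlin, a secreted protein that captures BMPs. Grem1 was at 10.53, 10.22, 9.09, 11.36 and 9.02 in stretch replicates 1 to 5 and at 8.09, 9.37, 6.65 and 8.82 in no-stretch replicates 1 to 4. The groups overlapped, since no-stretch replicate 2 lay above stretch replicates 3 and 5, and no-stretch replicate 3 was far below every other array. The means were 10.04 ± 1.00 (SD, n = 5) in stretched skin, against 8.23 ± 1.18 (SD, n = 4) in the other group, a log2 difference of 1.81 (0.55 to 3.07; 3.51-fold, limma adjusted p = 0.21, exact permutation p = 0.056). It was 1.28 without no-stretch replicate 3 and 1.16 without that array and stretch replicate 1. The other secreted antagonists among the 44 members had intervals that include 0: Nog, noggin, had 0.01 (-0.41 to 0.43), and Chrdl1, a chordin-like protein, -0.37 (-0.80 to 0.06). Fstl1, a follistatin-like glycoprotein, had -0.16 (-0.81 to 0.49). Outside the 44, the secreted antagonist Sostdc1 had the opposite sign to Grem1, at -1.04 (-1.59 to -0.50), and is described below.

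The BMP receptors were of both signs. Bmpr2, the type II receptor, was at 12.11, 13.45, 13.37, 13.06 and 13.46 with stretch and at 14.25, 13.67, 13.51 and 13.57 without. The groups did not overlap, but stretch replicate 1 lay well below the rest, and without it the log2 difference of -0.66 (-1.28 to -0.04; exact permutation p = 0.032) was -0.42. That array also stood apart in the skeletal muscle markers, with a list mean of -1.59 where the other 8 arrays lay between -0.36 and 0.60. It was likewise the lowest array for Smad1 and Tgfb2, and the part of muscle RNA in these values was not tested. Bmpr1b, a type I receptor, had 0.65 (0.20 to 1.10; exact permutation p = 0.040). Its level was low, at percentile 23 of all genes, and no-stretch replicate 4 lay above stretch replicates 1 and 5. The type I receptors Bmpr1a and Acvr1 had -0.21 (-0.61 to 0.20) and -0.13 (-0.51 to 0.25).

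All 5 receptor-activated and common SMAD genes had a lower mean with stretch, also after quantile normalization and median centring. Smad1, which carries the BMP signal, was at 9.26, 10.00, 10.14, 9.94 and 10.14 in stretch replicates 1 to 5 and at 10.69, 10.43, 10.72 and 10.39 in no-stretch replicates 1 to 4. The groups did not overlap, and stretch replicate 1 was the lowest array. The log2 difference of Smad1 was -0.66 (-1.10 to -0.22; limma adjusted p = 0.20, exact permutation p = 0.0079), and -0.50 without that array. Smad5, its partner in the same branch, had -0.37 (-0.84 to 0.10), and the common Smad4 -0.46 (-0.98 to 0.07). Smad2 and Smad3, which carry the TGF-beta and activin signal, had -0.41 (-0.95 to 0.13) and -0.24 (-0.70 to 0.23). The intervals of Smad2, Smad3, Smad4 and Smad5 include 0.

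The inhibitory SMADs, which are induced by the pathways they restrain, had positive differences. Smad7, which blocks TGF-beta and BMP receptors, was at 5.87, 5.57, 5.84, 6.14 and 5.60 in stretch replicates 1 to 5 and at 5.19, 4.64, 5.06 and 5.46 in no-stretch replicates 1 to 4. All 5 stretched arrays were above all 4 others. Its means were 5.80 ± 0.23 (SD, n = 5) in stretched skin, against 5.09 ± 0.34 (SD, n = 4) in the other group, a log2 difference of 0.71 (0.28 to 1.14; 1.64-fold, limma adjusted p = 0.16, exact permutation p = 0.0079, the smallest that these arrays allow). Leaving out single arrays kept it between 0.57 and 0.84. Smad6, which acts mainly on BMP signals, had 0.16 (-0.29 to 0.61). Among the intracellular antagonists of the TGF-beta side, Ski had -0.39 (-0.82 to 0.04), its relative Skil 0.19 (-0.16 to 0.54) and the TGF-beta-induced gene Pmepa1 0.11 (-0.48 to 0.70).

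The Id genes encode inhibitors of basic helix-loop-helix factors and are targets of BMP signals. Their means were of both signs: the members Id1, Id2 and Id3 were higher with stretch, and Id4, which is not among the 44, was lower (log2 difference -1.06, -1.81 to -0.32; limma adjusted p = 0.22). Of the 4, Id4 had the difference of largest size. Id2 was at 13.53, 12.01, 12.87, 14.08 and 12.86 with stretch and at 11.90, 12.12, 12.27 and 12.79 without. Stretch replicate 4 was the highest, whereas stretch replicate 2 lay within the other group, so the groups overlapped. Its log2 difference was 0.80 (0.02 to 1.58; exact permutation p = 0.11). Id1 was at 11.30, 12.11, 12.80, 11.30 and 12.45 with stretch and at 10.99, 11.36, 12.15 and 11.32 without. The arrays highest for Id2, stretch replicates 1 and 4, were the lowest of their group for Id1. Id1 had a log2 difference of 0.54 (-0.21 to 1.28; exact permutation p = 0.25) and Id3 of 0.26 (-0.38 to 0.90; exact permutation p = 0.44). None of these Id genes passed over all genes. The windows printed for Id2 and Id3 differ in the SMAD motifs they hold, and the part of these motifs in the values was not tested.

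**Figure D4:**
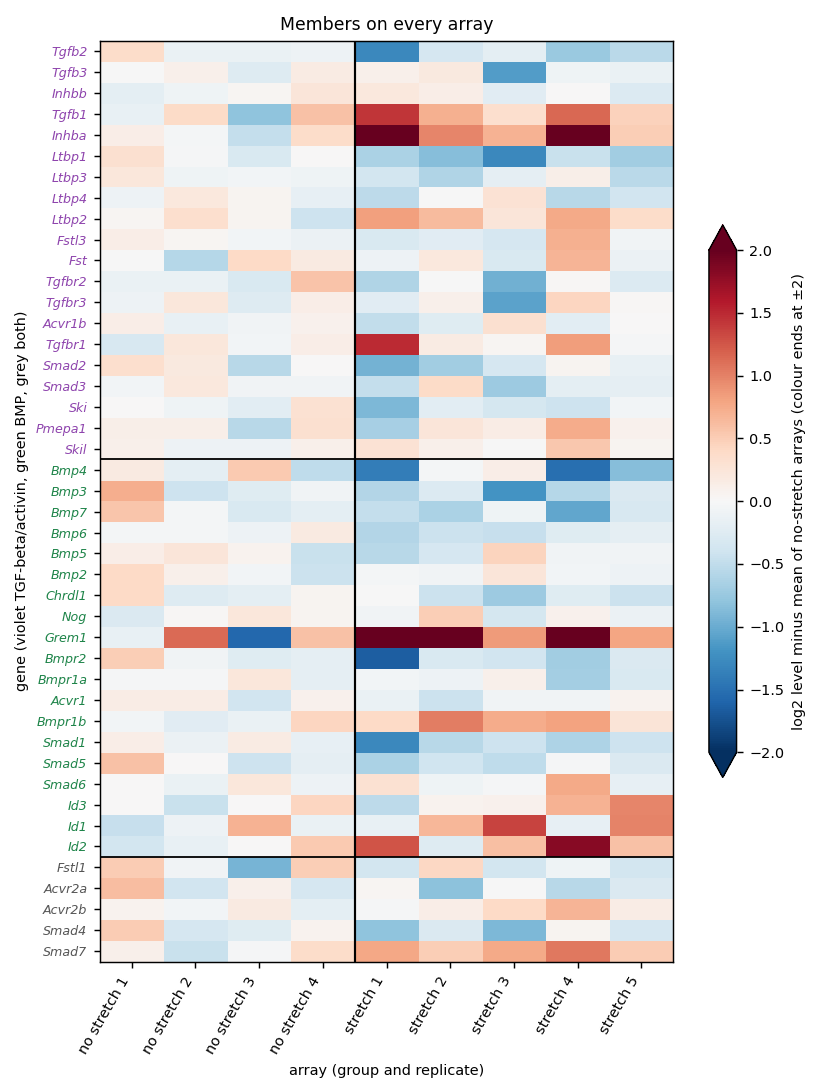
Each of the 44 members (rows, ordered by branch and role) on each of the 9 arrays (columns), coloured by its log2 level minus the mean of the no-stretch arrays. Stretch replicates 1 and 4 are darkest red for Inhba, Tgfb1, Tgfbr1 and Id2 and darkest blue for Bmp4, and Smad7 is red in all 5 stretched arrays.

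Other genes of the pathway were taken from lists written from textbook knowledge, with earlier results of these data known. On the TGF-beta and activin side 1 of 28 passed, and it was lower (all genes: 0.246%). This was Acvr1c, which encodes the type I receptor ALK7 known from fat tissue. Acvr1c was at 5.21, 5.06, 4.93, 5.17 and 4.98 in stretch replicates 1 to 5 and at 6.21, 6.20, 6.15 and 5.73 in no-stretch replicates 1 to 4, with no overlap. It fell by 1.00 on the log2 scale (SE 0.16, limma adjusted p = 0.032), and the call held in 3 of the 9 fits that left out 1 array, those without stretch replicate 1, stretch replicate 3 or no-stretch replicate 4. Its adjusted p reached 0.12 without no-stretch replicate 1. Adipocyte markers had 4 of 5 negative, with a mean of -1.32 to -0.30 with stretch and -0.36 to 0.35 without, and their part was not tested. At an unadjusted p under 0.05 this list had 5 genes (17.9%, against 13.0% of all genes), 3 higher and 2 lower, so its share lay near that of all genes. The genes of smallest p after Acvr1c were Lefty2, a secreted antagonist (log2 difference 0.64), Smurf1, a ubiquitin ligase of SMADs and receptors (0.56), and Nrros, which anchors latent TGF-beta on myeloid cells (0.69).

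On the BMP side 0 of 28 other genes passed limma's adjusted threshold, and 1 was higher and 6 lower at an unadjusted p under 0.05 (all genes: 6.92% and 6.07%). Sostdc1, a secreted BMP and Wnt antagonist of the hair follicle, was at 6.63, 6.49, 6.46, 6.11 and 6.27 with stretch and at 8.30, 7.11, 7.24 and 7.10 without. The groups did not overlap, and no-stretch replicate 1 was the highest array. Its log2 difference was -1.04 (limma adjusted p = 0.11), and -0.76 without that array. Id4, given above with the other Id genes, was among the 6, as was Gdf10 at -0.84 (-0.57 without no-stretch replicate 3). Bambi, a pseudoreceptor that damps TGF-beta and BMP signals, had 0.56.

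TGF-beta target genes were of both signs. Among 18 measured 1 passed, and it was lower (all genes: 0.246%), with 2 higher and 5 lower at an unadjusted p under 0.05 (all genes: 6.92% and 6.07%). Fn1, fibronectin, was at 12.61, 13.68, 12.32, 13.39 and 12.50 in stretch replicates 1 to 5 and at 15.01, 14.12, 14.81 and 14.96 in no-stretch replicates 1 to 4. The groups lay apart, and Fn1 fell by 1.83 on the log2 scale (SE 0.30, limma adjusted p = 0.038). Of the fits that left out 1 array, only that without stretch replicate 3 kept the call, and the adjusted p reached 0.15 without no-stretch replicate 1. Eln, elastin, had -1.04, Col1a2 -0.82 and Col1a1 -0.88, the last 2 being chains of type I collagen (limma adjusted p = 0.070, 0.077 and 0.16). Both collagen genes are also in the fibroblast marker list, so these values and that list are not independent. The 2 higher targets were Junb, an AP-1 subunit, at 1.23 (0.39 to 2.06; limma adjusted p = 0.21), and Tgfbi, a matrix protein, at 0.75 (0.05 to 1.45; limma adjusted p = 0.35). Lox, which cross-links collagen and elastin, had 0.89 (-0.28 to 2.06), and 0.54 without no-stretch replicate 3 and stretch replicate 1. Col3a1, also a fibroblast marker, Postn and Comp had -0.41, -0.62 and -0.24, with intervals that include 0. Thbs1 and Ccn2 of the same list had positive differences, 0.45 and 0.20, with intervals that include 0. Snai2, also among the 5 lower genes, had -0.55 (limma adjusted p = 0.24). Junb, Tgfbi, Lox, Col3a1, Postn, Comp, Thbs1, Ccn2 and Snai2 were chosen after their values were seen.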

How the data were processed

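The authors deposited a table of log2 expression values for 22206 features on 9 arrays, made from biotin-labelled cRNA of total RNA. The submitters' processing notes name RMA and Transcriptome Analysis Console. Versions, genome build, annotation and filters: not given in the sources used here. RMA commonly compresses low values, which understates their differences.

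Features were named from the platform annotation (19572 with 1 symbol, 2634 unnamed here), and the feature of highest mean was kept for each of 19505 genes. Differences, stretch (n = 5) minus no stretch (n = 4) by sample title, came from limma 3.58.1 in R 4.3.3 with no covariate, two-sided, adjusted by Benjamini-Hochberg over all genes at 0.05. Folds are 2 to the power of the log2 difference. Exact permutation tests (two-sided, 126 splits, smallest p 0.0079) were run for 23 members. Their p-values are not adjusted for the 23 tests. The 23 include the 14 members of smallest limma p on the same arrays, so the permutation p-values are no independent support. The limma test was checked on simulated data. The members and lists were chosen with earlier results of these data known. Named were members past the threshold, the 14 of smallest p, and preset roles, and 4 genes of each other list, with further targets added later. The remaining members are given by their intervals, and lists by counts and medians with no list test. Some of the listed genes are not reported here.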

Additional observations from a re-analysis of the deposited data

Results flagged for a closer look

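For the 23 named members both groups were searched for an array far from its group (46 groups), and 4 were found; chance marks about 1 group in 20. In no-stretch replicate 1 Tgfb2 was at 8.61, above the other 3 arrays of its group, the nearest of which was at 8.14. In stretch replicate 1 Smad1 was at 9.26 and the nearest of its group at 9.94. In stretch replicate 3 Tgfb3 was at 6.31 against 7.31 for the nearest, and Bmp2 at 3.25 against 2.97. The level of Bmp2 was low, at percentile 9.0 of all genes.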

How the results depend on the processing

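The count of 0 members past limma's adjusted threshold was the same in 17 of 18 alternatives; with the replicate number as a block it was 2, Grem1 (2.07, adjusted p = 0.025) and Inhba (1.49, adjusted p = 0.029), while Acvr1c and Fn1 no longer passed (adjusted p = 0.066 and 0.061). The labels give no shared source for equal numbers. The deviations of same-numbered arrays correlated at -0.06, -0.02, 0.06 and 0.34, with 1 of 4 arrays of each group closest to its own number. So few pairs cannot decide whether equal numbers share a source. Over all genes 221 passed under the block against 48. Members with an unadjusted p under 0.05 numbered 8 to 15 without single arrays (all genes: 9.75% to 13.9%). After median centring they numbered 10 (all genes: 13.7%). The branch medians ranged without single arrays from -0.27 to -0.079 for BMP, from -0.20 to 0.02 for TGF-beta/activin, and from -0.067 to 0.28 for their difference; with means in place of medians the BMP value was -0.026. Bmp2 turned positive after quantile normalization (0.014), median centring (0.062) and the block (0.019), and ranged from -0.15 to 0.12 without single arrays. Without single arrays Fst ranged from -0.12 to 0.21, Nog from -0.11 to 0.10, Pmepa1 from -0.075 to 0.30 and Tgfb3 from -0.31 to 0.020; with no-stretch replicate 3 and also stretch replicate 1 omitted, Fst was at 0.26 and Tgfb3 at -0.37. The other named members kept their sign in every alternative. Omitting the dimmest 25% of genes left 40 members. The runs on the 15 other pathway genes and targets were added after seeing the data. Signal over background was not assessed here.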
